A study of Mus musculus with 69 samples.

Results

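Collagens are the trimeric proteins that build fibrils, basement membranes and other networks around cells. The genes described here are all those whose symbol is Col, a number, the letter a and a number, once the gene IDs of the deposited count tables had been paired with the symbols of the 1 deposited table that gives both. This rule found 44 genes among 55964 IDs and used no measured value. They were followed in female mice of C57BL/6J background carrying 1 of 3 Zeb1 genotypes. WT mice have the unmodified gene, Zeb1_200H mice (200H below) have 1 mutant allele and Zeb1_200M mice (200M) have both alleles mutant, with base changes that remove the miR-200a and miR-200b pairing sites from the Zeb1 3′ UTR. The knock-in is in every cell, and the other genes that these microRNAs bind keep their sites. The paper reports, however, that the microRNAs themselves were lower in the pituitary of both mutants, and that their predicted targets were higher there.

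Pituitary, hypothalamus and ovary were sequenced from 2 cohorts, and all mice were staged for proestrus. The young cohort held virgin females of 8 to 12 weeks, and the older cohort held females of 28 to 36 weeks that had first been used in a breeding trial. There were 69 libraries in 18 groups of 3 or 4. Age, breeding, the library kit and the way reads were counted all change with cohort and cannot be told apart. The paper reports that most females with both alleles mutant had no litter in the breeding trial, unlike the other genotypes. In the older cohort, pregnancy history therefore changes with genotype as well. The paper also reports few corpora lutea, which form after ovulation, in mice with both alleles mutant of each cohort. The part of pregnancy and ovulation in the differences between genotypes was not tested. Within the older cohort, reads of ovary were also counted with another program and annotation than those of pituitary and hypothalamus. Libraries are named by genotype and number. WT u is the young WT pituitary library with no usable number in its column.

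Fibrillar collagens such as types I and III give tissue its tensile strength, and type I is normally assembled from both Col1a1 and Col1a2 chains. Type IV chains form the sheet of every basement membrane, type VI chains form beaded microfibrils close to cells, fibril-associated collagens sit on the surface of fibrils, and transmembrane collagens are anchored in the plasma membrane. In the pituitary, collagens lie in the capillary walls and in the connective tissue around the lobules of hormone cells, and in the ovary they make up the stroma, the theca and the basement membrane of follicles. ZEB1 is a repressor of epithelial genes that also represses the miR-200 genes, and it binds short E-box motifs.

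The 2 mature microRNA families that the Zeb1 alleles escape are shown first, because their seed is the sequence to look for in a collagen transcript. The sequences are from RefSeq on GRCm38.p6, capitals mark the seed, bases 2 to 8, and the genes are at chr4:156054911-156054932 and chr4:156055685-156055706, both on the minus strand.
mmu-miR-200a-3p: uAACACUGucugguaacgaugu
mmu-miR-200b-3p: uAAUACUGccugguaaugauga
An 8-base site for the first family reads CAGTGTTA and for the second CAGTATTA. Of the 44 collagen genes, 3 (6.82%) held either site in an annotated 3′ UTR, against 1401 of 20998 genes (6.67%), so that sites were about as frequent among collagens as among all genes. All 3 were the miR-200a form. They are shown because Col1a2 and Col25a1 are among the genes whose level changed in the pituitary. Each 30-base stretch is read in the direction of the gene, with the site in capitals. Col1a2 is at chr6:4540876-4540905 on the plus strand, Col25a1 at chr3:130598176-130598205 on the plus strand and Col26a1 at chr5:136743003-136743032 on the minus strand.
Col1a2: caaaatgtttgCAGTGTTAtttttgtgggt
Col25a1: gcttccatatcCAGTGTTAgagaagtctgc
Col26a1: cagtgcgagccCAGTGTTAcagctgaacag
A match is a description of the sequence and not a measured binding site. The Col1a2 site begins 225 bases after the stop codon in a 3′ UTR of 882 bases, and the Col25a1 site 2495 bases after it in one of 4185 bases.

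WT mice give the baseline of each tissue. Levels between genes are given as CPM (counts scaled to a common library size) per kilobase of exon, and the 3 tissues were scaled separately, so that values set side by side across tissues are approximate. The length is that of all exons of a gene together, and the order of genes can change with another choice of length. In young WT pituitary Col1a2 was the most abundant collagen at 37.6 ± 4.51 CPM per kilobase (SD, n = 3), followed by Col4a1 at 18.5, Col4a2 at 8.85 and Col25a1 at 7.47. In young WT ovary Col1a1 led at 189.9 CPM per kilobase, followed by Col6a1 at 159.2, Col4a1 at 85.8 and Col1a2 at 75.0. In young WT hypothalamus the leading gene was Col25a1, a transmembrane collagen of neurons, at 16.7 CPM per kilobase, followed by the basement membrane genes Col4a2 at 7.78 and Col4a1 at 6.79. The summed level of all 44 genes was 1238 ± 68.4 CPM in young WT pituitary, 665 ± 23.1 CPM in hypothalamus and 6646 ± 583 CPM in ovary. The older WT sums were 1770 ± 299.9, 990.0 ± 98.0 and 7298 ± 1715 CPM (SD, n = 4 each). Col10a1, a collagen of growth plate cartilage, was at or near 0 in every pituitary library, the highest value being 0.424 CPM.

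**Figure D1:**
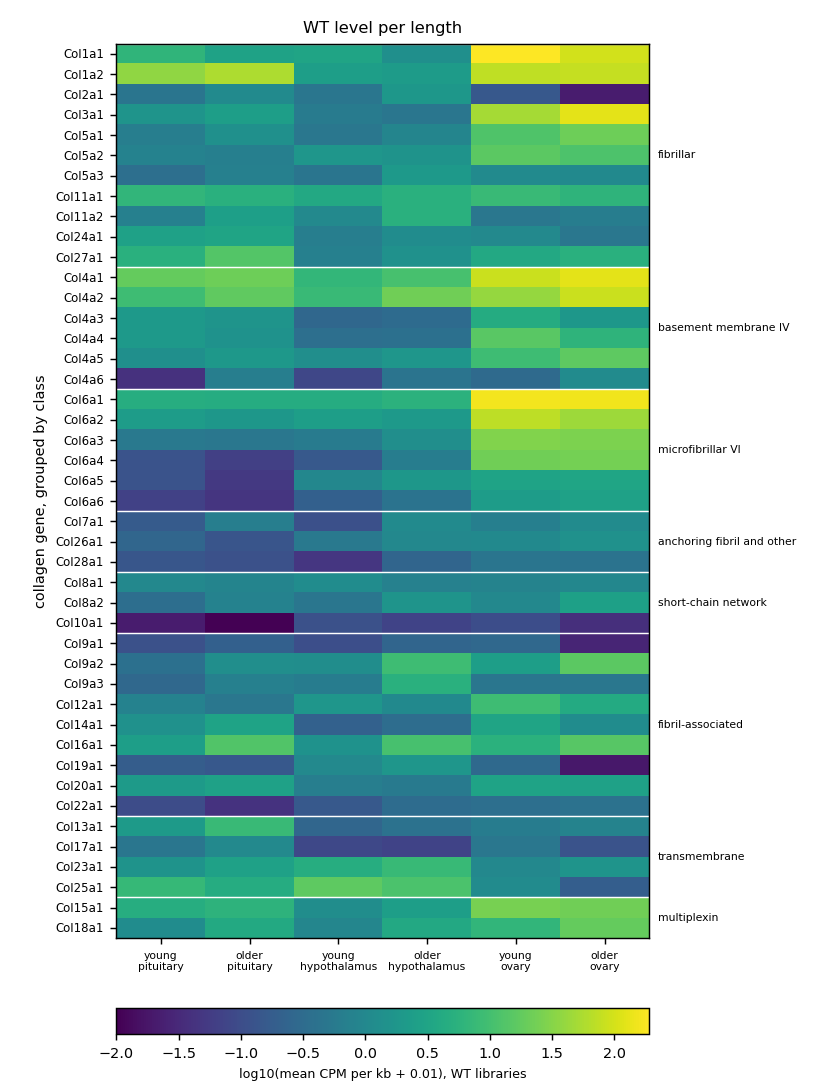
Level of each of the 44 collagen genes (rows, grouped by class) in WT libraries of each cohort and tissue (columns), as log10 of the mean CPM per kilobase plus 0.01. The ovary columns are brightest for Col1a1 and Col6a1 in the young and for Col6a1 and Col3a1 in the older cohort, and the pituitary columns for Col1a2, which stood at 37.6 CPM per kilobase in the young cohort.

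Zeb1, the targeted gene, was higher in the pituitary of both mutants. It was 95.6 ± 2.57 CPM in young WT pituitary (n = 3), 130.5 ± 4.12 in 200H and 137.9 ± 4.90 in 200M (n = 4 each), and in the older cohort 58.8 ± 3.15, 73.8 ± 2.64 and 85.2 ± 6.08 CPM. No 200H or 200M library overlapped a WT library of its cohort. Zeb1 passed the test in neither hypothalamus nor ovary. Every test below is edgeR's quasi-likelihood test on the raw counts of 2 genotypes in 1 tissue and cohort, with Benjamini-Hochberg adjustment over all genes tested, and a gene is said to have risen or fallen at an adjusted p under 0.05. Library depth was 4527753 to 13342430 counts in pituitary, 3321845 to 13917738 in hypothalamus and 6337205 to 14655095 in ovary.

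In the pituitary of 200M mice a limited set of collagen genes changed, the same way in both cohorts. Col1a2 and Col16a1 fell, and Col24a1, Col27a1, Col23a1, Col8a1, Col25a1, Col6a1 and Col6a2 rose. In young pituitary 39 of the 44 genes were abundant enough to be tested, and 9 of them were called (23.1%), 7 higher and 2 lower in 200M than in WT. Over all 18199 genes tested in that comparison 21.5% were called, 11.5% higher and 10.0% lower, so the number of changed collagens was close to that background. The median log2 fold change of the 39 was 0.31, against 0.002 over all genes tested. In older pituitary 36 were tested and 17 called (47.2%), 15 higher and 2 lower, against 21.4% of all 14711 genes tested (11.7% higher and 9.77% lower). The median log2 fold change of the 36 was 0.38, against -0.013 over all genes.

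All 9 genes called in young 200M pituitary were also called in older 200M pituitary with the same direction, and they make up 52.9% of the older calls. Over all genes, 2017 of the 3913 young calls (51.5%) were called in the same direction in older 200M pituitary, which is 64.0% of the 3153 older calls. Of the 3360 young calls that were also tested in older pituitary, as all 9 collagen genes were, the share was 60.0%. Whether the collagen genes differ from that share was not tested. The cohorts share no library. A direct test of whether the 200M effect differed between older and young pituitary called 0 of 42 collagen genes, the smallest adjusted p being 0.418 in edgeR's test, while over all genes 0.0273% differed. DESeq2 called 1 of the 42, and its calls over all genes in that test are not given here. These small numbers do not show that the effects were equal. In bulk tissue, fewer cells of a type and less RNA per cell cannot be told apart, here and in every result below.

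**Figure D2:**
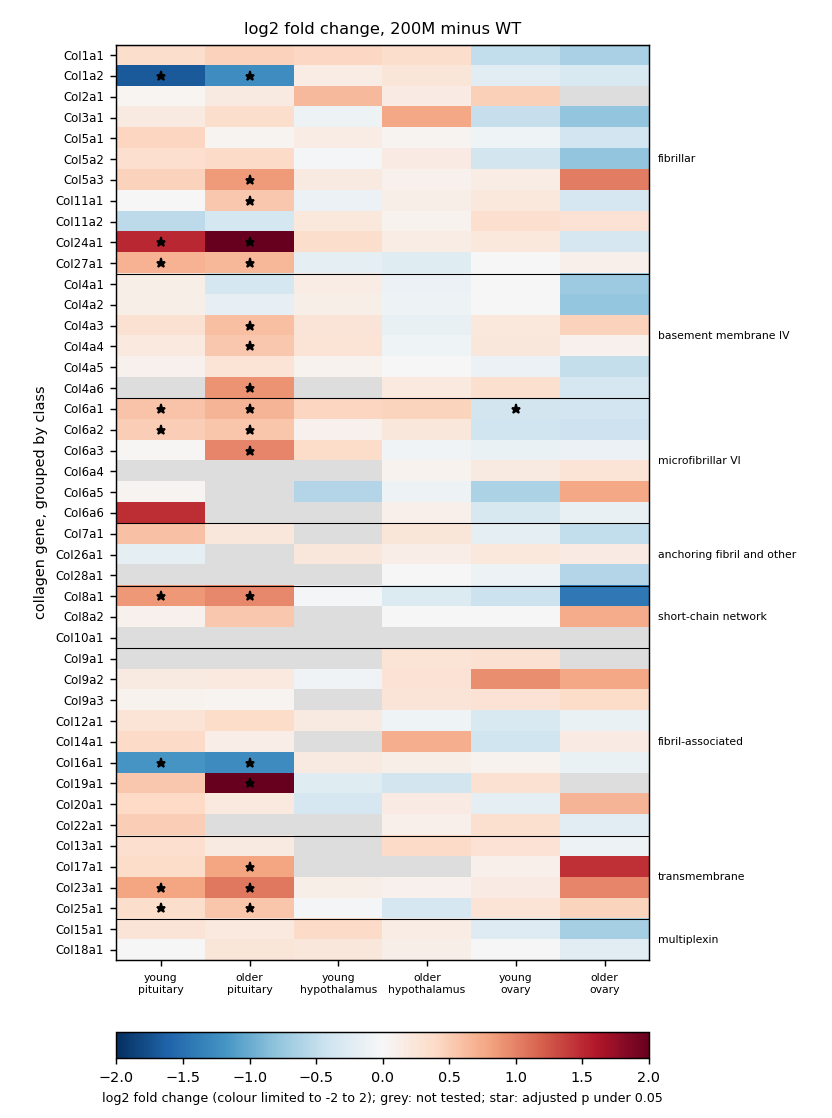
Log2 fold change of 200M over WT for the 44 collagen genes (rows, by class) in the 6 combinations of cohort and tissue (columns), with stars at adjusted p under 0.05 and grey where a gene was not tested. The pituitary columns hold 9 and 17 stars, the ovary columns 1 and 0 and the hypothalamus columns 0.

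Among fibrillar collagens Col1a2, the partner chain of Col1a1, fell. In young WT pituitary the libraries stood at 512, 404 and 484 CPM, in 200H at 151, 208, 145 and 138, and in 200M at 140.7, 130.9, 154 and 160. The lowest WT library was well above the highest mutant one, and 200H and 200M occupied the same range. Col1a2 was 3.20-fold lower in young 200M than in WT (log2 -1.68 ± 0.087 SE, edgeR adjusted p = 8.24e-09) and 2.93-fold lower in 200H (log2 -1.55 ± 0.122, adjusted p = 6.01e-06). In older WT pituitary it was 617, 918, 764 and 529 CPM, in 200H 310, 226, 329 and 323, and in 200M 364, 273 and 251. The groups were again separate, with 200M 2.36-fold lower than WT (log2 -1.24 ± 0.177, edgeR adjusted p = 4.39e-04) and 200H 2.37-fold lower (log2 -1.25 ± 0.164, adjusted p = 3.7e-04).

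Col1a1, whose product trimerises with that of Col1a2, did not follow. It was 45.6, 37.9 and 38.8 CPM in young WT pituitary, 38.8, 52.2, 48.4 and 38.0 in 200H, and 39.7, 47.9, 42.3 and 80.9 in 200M. The groups overlapped, and the highest value was that of 200M 4, which was also the highest young 200M library for Col4a1, Col6a1 and Col15a1. The log2 difference between 200M and WT was 0.35 ± 0.202 (edgeR adjusted p = 0.25), and in the older cohort, with WT at 15.2 to 23.2 CPM and 200M at 19.6 to 31.8, it was 0.46 ± 0.190 (adjusted p = 0.106). Per kilobase, WT pituitary held 6.05 ± 0.494 Col1a2 for each Col1a1 in young mice and 20.1 ± 6.64 in older mice, and the ratio was 1.57 ± 0.413 and 6.07 ± 1.28 in 200M and 1.92 ± 0.239 and 7.05 ± 1.70 in 200H. No mutant library reached a WT library of its cohort. Outside the pituitary the WT ratio was lower, 0.805 and 1.66 in young and older hypothalamus and 0.400 and 0.865 in ovary. The ratio uses the length of all exons together. With the longest coding transcript the young pituitary ratios were 12.7 in WT and 3.30 in 200M. That choice raises the ratio of every library by the same factor. Whether a ratio outside the pituitary lies above or below 1 can therefore depend on the length used.

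**Figure D3:**
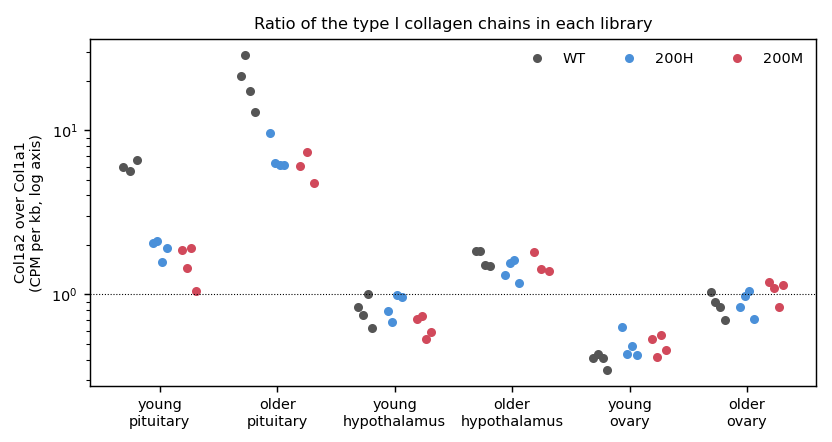
Ratio of Col1a2 to Col1a1, each as CPM per kilobase of all exons together, in every library (points, coloured by genotype) on a log axis, with a dotted line at 1. Young WT pituitary libraries lie at 5.63 to 6.59 and older ones higher, all above the 200H and 200M libraries of their cohort, whereas in hypothalamus and ovary the genotypes overlap.

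Col24a1 and Col27a1, fibrillar collagens with a shorter helical part than type I, went the other way. Col24a1 was 24.4, 22.4 and 17.97 CPM in young WT pituitary, 61.8, 59.6, 63.5 and 44.7 in 200H, and 58.5, 64.3, 62.8 and 62.1 in 200M. In older pituitary it was 23.6, 23.1, 27.4 and 23.0 CPM in WT, 94.2, 86.5, 81.8 and 87.6 in 200H, and 90.6, 93.0 and 102 in 200M. All mutant libraries exceeded all WT libraries. The rise was 2.85-fold in young 200M (log2 1.51 ± 0.100, edgeR adjusted p = 1.03e-07) and 3.98-fold in older 200M (log2 1.99 ± 0.097, adjusted p = 1.11e-07). In 200H the log2 rise was 1.40 ± 0.131 among young and 1.86 ± 0.091 among older mice.

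Col27a1 was the more abundant of the pair, with 70.3, 65.9 and 65.2 CPM in young WT, 91.1, 100.4, 97.8 and 88.3 in 200H, and 109.8, 107.5, 109.7 and 108.3 in 200M pituitary. The 3 genotypes did not overlap, and 200H lay between WT and 200M. The log2 rise was 0.69 ± 0.065 in young 200M (edgeR adjusted p = 3e-06) and 0.48 ± 0.075 in young 200H (adjusted p = 0.00108). In older pituitary the means were 174 ± 28.0 CPM in WT, 237 ± 36.1 in 200H and 273 ± 46.3 in 200M, with a rise of 0.67 ± 0.136 for 200M (adjusted p = 0.0046) and of 0.45 ± 0.134 for 200H (adjusted p = 0.0439). The older 200H call was lost without any of WT 1, WT 2, WT 3, 200H 2, 200H 3 or 200H 4, with log2 values of 0.35, 0.47, 0.50, 0.38, 0.50 and 0.40. Among the other fibrillar genes in older 200M, Col11a1 rose from 66.0 ± 3.69 to 94.9 ± 8.31 CPM (log2 0.54 ± 0.083, adjusted p = 8.02e-04). In the young cohort Col11a1 was 82.6 ± 10.3 CPM in WT and 83.2 ± 4.23 in 200M (log2 0.00 ± 0.085, adjusted p = 0.98). Col3a1, the type III chain, was 16.0 ± 2.54 against 18.3 ± 3.64 CPM in young WT and 200M pituitary (adjusted p = 0.505) and 24.7 ± 3.62 against 31.6 ± 7.10 in older (adjusted p = 0.147). Of the 11 fibrillar genes, 2 rose and 1 fell in young 200M, and 4 rose and 1 fell in older 200M. Over all genes 11.5% rose and 10.0% fell in young, and 11.7% and 9.77% in older.

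**Figure D4:**
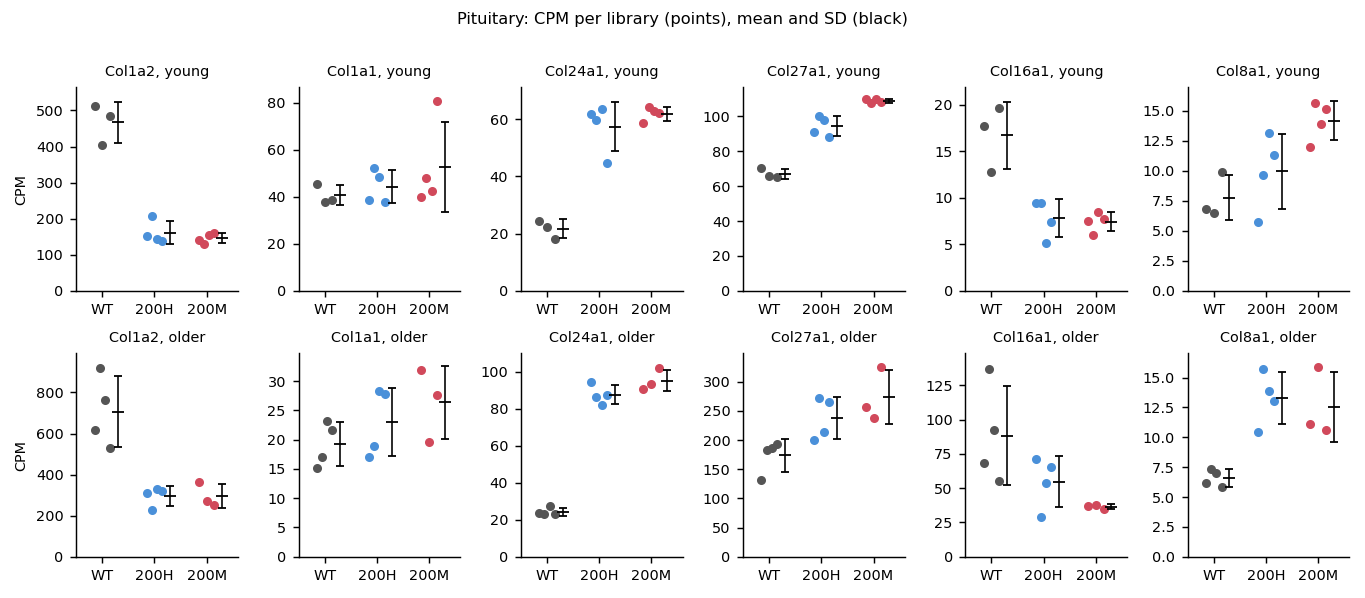
CPM of 6 collagen genes in each pituitary library (points), with mean and SD in black, for the young (top) and older (bottom) cohort. Col1a2 and Col16a1 are lower and Col24a1 and Col27a1 higher in 200M than in WT without overlap, whereas the Col1a1 libraries overlap.

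Among fibril-associated collagens Col16a1 fell. It was 17.8, 12.8 and 19.7 CPM in young WT pituitary, 9.47, 9.44, 5.16 and 7.35 in 200H, and 7.53, 5.99, 8.47 and 7.77 in 200M. The mutant libraries lay below all WT libraries, 2.26-fold on average in 200M (log2 -1.18 ± 0.167, edgeR adjusted p = 1.37e-04) and 2.13-fold in 200H (log2 -1.09 ± 0.206, adjusted p = 0.00379). In older WT pituitary it ranged widely, with 68.6, 137.2, 92.7 and 54.9 CPM, against 37.2, 37.8 and 34.6 in 200M (log2 -1.26 ± 0.246, adjusted p = 0.00367). Older 200H libraries, at 71.4, 29.0, 53.7 and 65.2 CPM, overlapped WT and did not pass the test (log2 -0.68 ± 0.284, adjusted p = 0.145). Col19a1 rose in older 200M, from 0.953 ± 0.250 to 5.51 ± 2.37 CPM (log2 2.51 ± 0.341, adjusted p = 3.23e-04), while the young values were 1.21 ± 0.933 and 1.90 ± 1.42 CPM (adjusted p = 0.577). The difference of its effect between cohorts did not pass its own test, and it was not tested in older 200H against WT with all libraries.

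Of the type VI microfibril genes, 2 of 5 tested rose in young and 3 of 3 tested in older 200M pituitary, against 11.5% and 11.7% of all genes. Col6a1 was 22.3, 18.5 and 20.2 CPM in young WT and 28.5, 26.7, 27.1 and 39.5 in 200M, and Col6a2, the neighbouring gene on chromosome 10, was 19.6, 19.5 and 18.2 against 23.7, 24.6, 24.4 and 35.9. The groups did not overlap for either gene, and 200M 4 stood apart above the others in both. The log2 rise was 0.57 ± 0.145 for Col6a1 (edgeR adjusted p = 0.0114) and 0.49 ± 0.149 for Col6a2 (adjusted p = 0.029), and the lowest log2 value of Col6a1 under any alternative was 0.42, still called. The Col6a2 call was lost without WT 1, WT 2 or WT u (log2 0.50, 0.51 and 0.46, adjusted p = 0.0737, 0.0505 and 0.0975). It was also lost in an edgeR fit that matched libraries by replicate number and left out WT u (log2 0.29, adjusted p = 0.213). In older 200M Col6a1 rose by 0.68 ± 0.159 (adjusted p = 0.00986), Col6a2 by 0.55 ± 0.155 (adjusted p = 0.0251) and Col6a3 from 5.92 ± 0.958 to 11.3 ± 0.838 CPM (log2 0.97 ± 0.179, adjusted p = 0.00254). Without older 200M 3 the adjusted p was 0.0583 for Col6a1 and 0.107 for Col6a2 (log2 0.58 and 0.49). The Col6a2 call was also lost without older WT 1 or 200M 1 (log2 0.46 and 0.53). In young WT and 200M Col6a3 was 6.28 ± 0.082 and 6.48 ± 1.14 CPM (adjusted p = 0.95), Col6a5 1.06 ± 0.228 and 1.15 ± 0.599 (adjusted p = 0.955) and Col6a6 0.531 ± 0.114 and 1.57 ± 0.869 (adjusted p = 0.0504).

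The main basement membrane genes did not pass the test. Col4a1 was 138.0 ± 2.87 CPM in young WT pituitary and 149.6 ± 26.9 in 200M (log2 0.11 ± 0.115, edgeR adjusted p = 0.552), and in the older cohort 160.6 ± 46.9 and 124.7 ± 29.9 (log2 -0.35 ± 0.206, adjusted p = 0.254). Col4a2, which is transcribed from the same start region in the opposite direction, gave 58.6 ± 4.27 and 63.6 ± 8.23 CPM in young mice, and 111.4 ± 34.3 and 98.3 ± 20.1 in older mice, with log2 differences of 0.11 ± 0.104 and -0.16 ± 0.206. Their exons overlap on opposite strands, and the older counts disregard strand, so reads from that stretch cannot be assigned to one of them. Of the 6 type IV genes, 0 of the 5 tested passed in young 200M and 3 of 6 in older 200M, against 21.5% and 21.4% of all genes. In older 200M Col4a5 (12.95 ± 3.19 CPM in WT and 15.6 ± 1.89 in 200M, edgeR adjusted p = 0.348) was among those that did not. Col4a6, from 5.23 ± 1.31 to 9.60 ± 1.84 CPM, passed the test in older 200M (log2 0.90 ± 0.233, adjusted p = 0.0165), but not without WT 2, 200M 1 or 200M 3 (log2 0.77, 0.82 and 0.80). Col4a3 and Col4a4, a pair transcribed from a shared start region, and outside type IV Col5a3 and Col17a1, also passed there, with log2 rises of 0.61 ± 0.181, 0.54 ± 0.170, 0.84 ± 0.241 and 0.78 ± 0.251. These 4 were picked for mention after their values had been seen. Each lost its call without 3 or more of the libraries taken singly, down to log2 values of 0.39, 0.45, 0.70 and 0.56. The multiplexins Col15a1 and Col18a1, basement membrane collagens with a large cleavable end, were not called in either cohort, with log2 differences of 0.26 ± 0.172 and -0.015 ± 0.170 in young and 0.20 ± 0.132 and 0.24 ± 0.169 in older 200M.

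Of the short-chain network collagens Col8a1, an endothelial and mesenchymal gene, rose. It was 6.85, 6.49 and 9.94 CPM in young WT pituitary and 12.0, 15.6, 13.9 and 15.2 in 200M, and in older pituitary 6.21, 7.36, 7.01 and 5.80 in WT and 11.1, 15.9 and 10.6 in 200M. There was no overlap in either cohort, and the log2 rise was 0.86 ± 0.171 (edgeR adjusted p = 0.00219) and 0.96 ± 0.182 (adjusted p = 0.00306). In 200H it was called in the older cohort (log2 1.01 ± 0.163, adjusted p = 0.00153), whereas young 200H libraries, at 5.74 to 13.2 CPM, overlapped WT.

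The transmembrane collagens Col23a1 and Col25a1 rose as well. Col23a1 was 8.79, 9.13 and 9.09 CPM in young WT pituitary and 13.8, 18.1, 13.3 and 17.8 in 200M (log2 0.79 ± 0.154, edgeR adjusted p = 0.00192), and in the older cohort 14.1, 14.2, 17.0 and 17.9 in WT against 35.4, 32.8 and 28.6 in 200M (log2 1.05 ± 0.131, adjusted p = 1.76e-04). The genotypes were separate in both cohorts. In older 200H it was 23.6, 20.6 and 27.0 CPM in 3 libraries but 2.09 in 200H 1, and a fit of all 3 genotypes together gave an adjusted p of 0.103 for 200M against WT. Library 200H 1 was also the lowest for Col13a1 (9.77 CPM against 32.3 to 46.1 in the other 10 older pituitary libraries) and for Col19a1 (0.116 CPM). Without it the older 200H comparison called 8 collagen genes rather than 5, and the 3 added were Col19a1 (log2 1.88), Col23a1 (0.61) and Col26a1 (1.46). Calls over all genes without 200H 1 are not given here. Col25a1 was 96.7 ± 10.4 CPM in young WT and 124.5 ± 9.93 in 200M (log2 0.36 ± 0.087, adjusted p = 0.0083), a call lost without WT 1 (log2 0.28, adjusted p = 0.0529), and 57.7 ± 4.89 and 83.8 ± 17.8 CPM in the older cohort (log2 0.56 ± 0.123, adjusted p = 0.00724).

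A marker list of the intermediate lobe and of pituicytes, the glia of the posterior lobe, moved with some of these results in the older cohort. The summed level of its 6 genes was 446 to 715 CPM in older WT, 193 in 200H 1 and 535 to 613 in the other 200H libraries, and 609, 1160 and 1060 in 200M 1, 200M 2 and 200M 3, and 4 of the 6 genes rose in older 200M. In 200M 1, whose sum was within the WT range, Col23a1 was 35.4, Col19a1 3.14, Col25a1 77.4, Col6a3 11.1 and Col11a1 85.8 CPM, each above all 4 WT libraries. In the young cohort the sums were 545 to 714 CPM in WT and 617 to 810 in 200M, and 1 of the 6 genes rose. Of 7 mural cell markers 4 rose in young and 2 in older 200M, with sums of 290 to 308 CPM in young WT and 382 to 443 in young 200M, and 260 to 361 and 319 to 410 in the older cohort. Of 5 meningeal markers 4 rose in each cohort, with sums of 30.3 to 32.3 and 53.6 to 74.3 CPM in young and 33.0 to 42.6 and 68.2 to 83.6 CPM in older WT and 200M. Of 7 fibroblast markers 4 were tested and 0 rose in young 200M, with sums of 39.4 to 41.1 CPM in WT and 35.6 to 43.8 in 200M, and 1, Pdgfra, rose in older 200M, with sums of 85.7 to 137 and 108 to 113. The fibroblast gene Dpt was at most 0.30 CPM in young pituitary. The summed hormone genes were 159000 to 183000 CPM in young WT and 65000 to 87500 in young 200M, and 285000 to 329000 and 163000 to 207000 in older. Among them Prl fell by 1.61 in young and 1.67 in older 200M on the log2 scale. How many of the other hormone genes rose or fell is not given here. Beside these marker counts, 11.5% of all genes rose in young and 11.7% in older 200M pituitary. The part of these cell types in the collagen results was not tested.

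In 200H pituitary fewer collagen genes passed the test than in 200M, and the same WT libraries serve both comparisons. In the young cohort 5 of 38 tested genes were called (13.2%, against 12.3% of all 18051 genes, 6.56% higher and 5.72% lower), Col1a2 and Col16a1 lower and Col24a1, Col27a1 and Col20a1 higher. Col20a1, a fibril-associated collagen, went from 10.99 ± 0.775 to 15.7 ± 1.99 CPM (log2 0.51 ± 0.143, edgeR adjusted p = 0.0351), and lost its call without WT 1, WT u, 200H 1, 200H 2 or 200H 4 (log2 0.46, 0.49, 0.50, 0.45 and 0.48) and in DESeq2 (adjusted p = 0.0545). In the older cohort 5 of 36 were called (13.9%, against 12.2% of all 14922 genes, 7.09% higher and 5.14% lower), Col1a2 lower and Col24a1, Col8a1, Col27a1 and Col25a1 higher. The Col25a1 call in older 200H (log2 0.35 ± 0.106, adjusted p = 0.0478) was lost without any of WT 1, WT 2, WT 4, 200H 2, 200H 3 or 200H 4, with log2 values of 0.29 to 0.36. Between 200M and 200H themselves edgeR called 0 of 39 collagen genes in young and 0 of 38 in older pituitary (2 and 6 at an unadjusted p under 0.05), where 0.0383% and 0.121% of all genes were called. DESeq2 also called 0 in both. For Col1a2 the means of 200H and 200M were 160.6 ± 32.2 and 146.5 ± 13.3 CPM among young mice, and 297.0 ± 48.1 and 296.1 ± 60.2 among older mice. Without older 200H 2, which had the lowest Col4a1 (83.8 CPM) and Col16a1 (29.0 CPM) of its group, 2 genes were called lower in 200M than in 200H, Col4a1 by 0.81 and Col16a1 by 0.80 on the log2 scale. Calls over all genes without 200H 2 are not given here.

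The enzymes and partners of collagen were counted by 5 lists of 66 genes in all. Over all genes tested, 11.5% rose and 10.0% fell in young 200M pituitary, and 11.7% and 9.77% in older. Of 18 genes for collagen synthesis and folding in the endoplasmic reticulum, 1 rose and 6 fell in young 200M pituitary and 2 rose and 5 fell in older 200M. Crtap, a subunit of the prolyl 3-hydroxylase complex, rose from 10.5 ± 1.16 to 17.4 ± 2.14 CPM in the young cohort (log2 0.72 ± 0.130, edgeR adjusted p = 0.00107). P3h4, whose product works in lysyl hydroxylation, fell from 23.0 to 15.3 CPM (log2 -0.59 ± 0.100, adjusted p = 5.99e-04), and P4hb, the disulfide isomerase subunit of prolyl 4-hydroxylase, fell by 0.33 ± 0.068 (adjusted p = 0.00278). Serpinh1, the collagen chaperone HSP47, was 105.0 ± 4.67 and 103.8 ± 7.73 CPM. Most of the list did not pass, and those that did included both directions.

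Among genes for maturation and cross-linking, Bmp1, the protease that removes the procollagen C-propeptide, rose from 20.7 ± 3.84 to 40.6 ± 3.32 CPM in young 200M (log2 0.96 ± 0.117, edgeR adjusted p = 3.42e-05) and by 0.75 ± 0.125 in older. Pcolce, which enhances that protease, rose by 0.62 ± 0.135 and 0.66 ± 0.163. Lox, a cross-linking oxidase, fell in young 200M (23.5 ± 4.13 to 13.5 ± 2.48 CPM, log2 -0.82 ± 0.155, adjusted p = 0.0015) and was 9.37 ± 0.543 and 8.28 ± 2.29 CPM in older WT and 200M (adjusted p = 0.593). Of these 13 genes 11 and 8 were tested, and 2 rose in each cohort. For this list and those below, the share of all genes that rose was 11.5% in young and 11.7% in older 200M. The endocytic collagen receptor Mrc2 rose from 14.5 ± 0.759 to 30.5 ± 0.825 CPM in young and from 49.8 ± 10.00 to 107.0 ± 9.42 in older 200M (log2 1.07 ± 0.096 and 1.12 ± 0.139). The adhesion receptors Itgb1 and Ddr1 fell in both cohorts, by 0.28 ± 0.058 and 0.27 ± 0.077 in young and by 0.31 ± 0.085 and 0.40 ± 0.086 in older 200M. Of 10 collagen receptor genes 9 were tested in young 200M, where 3 rose (Mrc2, Ddr2 and Lair1) and 2 fell. In older 200M 8 were tested, and 1 rose and 3 fell, Lair1 among the latter. Over all genes 10.0% fell in young and 9.77% in older 200M. Of 10 proteoglycan and glycoprotein genes of fibrils, 5 rose in young and 1 in older 200M. Decorin (Dcn) was common to both, with 59.0 ± 4.64 and 92.2 ± 14.5 CPM in young and 52.8 ± 12.6 and 98.9 ± 1.71 in older WT and 200M. Of 15 basement membrane partners, 5 rose in young and 4 in older 200M. The heparan sulfate proteoglycan Agrn rose by 0.47 ± 0.078 and 0.58 ± 0.114.

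Promoters were read for the 2 E-box forms that ZEB1 is known to bind, CAGGTG and CAGGTA, on both strands. Both are 6-base strings that share their first 5 letters, and the first is also a form of the general E-box CANNTG. In windows of 300 bases, 250 before and 50 after the RefSeq start on GRCm38.p6, 6 of 38 windows of collagen genes held either form (15.8%), against 29.5% of all 32851 windows. The 38 windows belong to 35 genes. Those of Col16a1 and Col8a1 are shown because these genes moved in opposite directions in both pituitary cohorts, with the motif in capitals, in the direction of the gene. They lie at chr4:130047647-130047676 on the plus strand and at chr16:57754738-57754767 on the minus strand, with the motif at -181 and -18 from the start.
Col16a1: cacccgcaggctCACCTGgctggggaagcg
Col8a1: aacagctccgccCACCTGtccataaaagcc
In both the strand shown carries the reverse complement of CAGGTG. The windows of Col1a2, Col24a1 and Col27a1 held neither string, which says only that these letters are not in these windows. For the 8-base microRNA sites, the 3 collagen genes tested with a site had a median log2 difference of -0.19 in young 200M pituitary and the 36 without one 0.32, and over all genes the medians were 0.099 with a site (1178 genes) and -0.002 without (12750 genes). In older 200M pituitary the medians were -0.34 for the 2 tested with a site and 0.38 for the 34 without. Over all genes they were 0.141 with a site (1133 genes) and -0.018 without (12222 genes).

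In the hypothalamus edgeR called 0 collagen genes in each of the 6 comparisons of genotypes, with 31 genes tested for young and 42 for older mice, where at most 0.0202% of all genes were called (0.02% in young 200M against WT, and 0.0% in 3 of the others). At an unadjusted p under 0.05 there were 4 genes in young and 5 in older 200M against WT, 1 and 2 in 200H against WT, and 0 and 2 in 200M against 200H. Col25a1, the neuronal transmembrane collagen, was 230.8, 209.6, 221.4 and 201.7 CPM in young WT and 246.9, 205.7, 215.7 and 176.7 in young 200M. In the older cohort it was 143.8, 146.4, 153.5 and 167.4 in WT, 154.3, 145.3, 156.1 and 154.2 in 200H, and 138.8, 112.1 and 111.4 in 200M. The older 200M libraries lay below all WT and 200H libraries, but the difference from WT did not pass adjustment (log2 -0.33 ± 0.098, edgeR adjusted p = 0.134), and 0.00622% of all genes were called there. DESeq2 called Col25a1 both against WT and against 200H (log2 -0.34, adjusted p = 0.0293 and 0.0179). Over all genes DESeq2 called 124 higher and 495 lower of 12947 there against WT, and 212 and 456 of 9485 against 200H. Col1a2 was 31.0 ± 4.55 and 33.9 ± 12.4 CPM in young WT and 200M hypothalamus, and 27.8 ± 10.4 and 32.7 ± 13.4 in older. The young libraries 200H 3 and 200M 3 had the lowest Col1a2, 10.3 and 16.3 CPM against 23.4 to 44.7 in the other 10, and the lowest meningeal marker sums, 89.0 and 127 CPM against 441 to 863.

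In the ovary, where collagens were most abundant, few differences passed the test. In young 200M against WT, 43 collagen genes were tested and 1 was called (2.33%), against 2.58% of all 19250 genes (0.878% higher and 1.7% lower). Col6a1 was 642.9, 622.6, 775 and 749 CPM in WT, 460.2, 647, 449 and 491 in 200H, and 498, 609, 444 and 592 in 200M. All 200M libraries were below all WT libraries, while 1 of the 200H libraries was within the WT range. The difference from WT was -0.37 ± 0.090 on the log2 scale (edgeR adjusted p = 0.0497), just inside the threshold, and the call was lost with RLE scaling (adjusted p = 0.0523), in the fit of all 3 genotypes (adjusted p = 0.156) and without any 1 of several libraries. Col1a1 was 1104, 1022, 1323 and 1536 CPM in WT and 744, 1149.8, 612 and 1004 in 200M (log2 -0.49 ± 0.158, adjusted p = 0.127), Col3a1 490.2 ± 41.7 and 354 ± 108 CPM (log2 -0.46 ± 0.144, adjusted p = 0.117) and Col6a2 597 ± 91.7 and 449 ± 94.5 CPM (adjusted p = 0.124). Library 200M 2 was the highest 200M library for Col1a1, Col3a1 and Col6a1. Without it 9 genes were called, Col6a1, Col1a1, Col6a2, Col5a2, Col3a1, Col12a1 and Col6a5 lower and Col9a2 and Col4a4 higher in 200M. How many of all genes were called without it is not given here, so these 9 have no background beside them. Young 200H against WT gave 0 calls in edgeR (9 at an unadjusted p under 0.05), where 0.0051% of all genes were called, and 200M against 200H also 0 (2 at an unadjusted p under 0.05), where 0.0% of all genes were.

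In older ovary 40 collagen genes were tested and edgeR called 0 in 200M against WT (12 at an unadjusted p under 0.05), against 2.71% of all 17792 genes. DESeq2 called 4 collagen genes, and over all genes 718 higher and 611 lower of 18919. The nearest were the basement membrane genes. Col4a1 was 726, 971, 1136 and 943 CPM in WT, 678, 705, 766 and 724 in 200H, and 632, 451, 515 and 652 in 200M. Col4a2 was 439.8, 596, 687 and 579 in WT, 417, 440.8, 472 and 443 in 200H, and 374, 252, 314 and 389.8 in 200M. For both genes all 200M libraries lay below all WT and 200H libraries, and the log2 differences from WT were -0.73 ± 0.181 (edgeR adjusted p = 0.0718) and -0.78 ± 0.184 (adjusted p = 0.0641). Fitting all 3 genotypes together called both, and over all genes 461 higher and 354 lower of 18473. WT 1 was the lowest WT library for Col1a1, Col3a1, Col4a1 and Col6a1, and without it 5 genes were called, Col1a1 by -0.90, Col5a2 by -0.97, Col3a1 by -1.01, Col4a1 by -0.86 and Col4a2 by -0.90. Calls over all genes without WT 1 are not given here, so these 5 have no background beside them. Col6a5, a type VI chain of restricted expression, was 13.6, 14.4, 19.1 and 28.7 CPM in older 200H and 74.9, 40.6, 30.6 and 60.8 in 200M (log2 1.43 ± 0.332, adjusted p = 0.0779), and 1.61% of all genes were called in that comparison, with 0 collagen genes in edgeR, 6 at an unadjusted p under 0.05 and 1 in DESeq2. In 200M against 200H DESeq2 called 450 genes higher and 414 lower of 21507. Older 200H against WT gave 0 of 39 (3 at an unadjusted p under 0.05), where 0.0% of all genes were called.

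**Figure D5:**
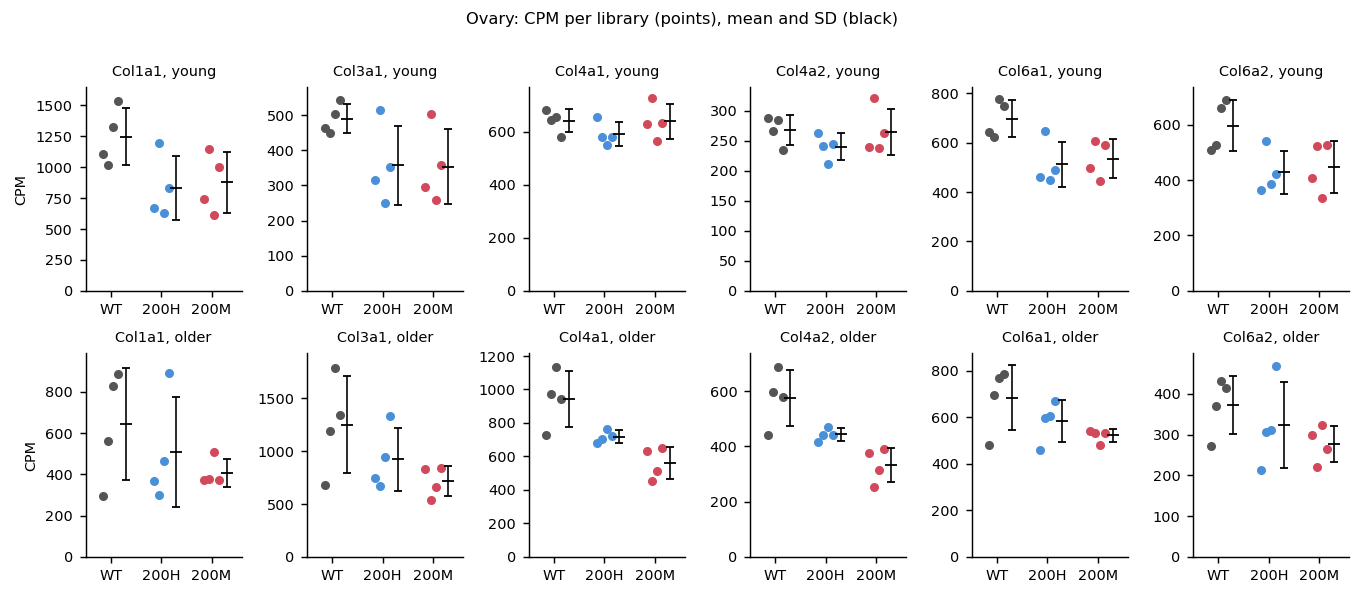
CPM of 6 abundant collagen genes in each ovary library (points), with mean and SD in black, for the young (top) and older (bottom) cohort. The older 200M libraries of Col4a1 and Col4a2 lie below all WT libraries, and in the young cohort Col6a1 shows the same order, whereas Col1a1 and Col3a1 overlap.

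Markers of luteal cells, the progesterone-making cells of the corpus luteum, moved with the 200M genotype in ovary. Of 6 luteal genes 3 fell in each cohort, where 1.7% of all genes fell in young and 211 of 17792 in older ovary. The luteal sum was 6430 to 9030 CPM in young WT and 4650 to 7910 in young 200M, and 7640 to 17000 and 3750 to 8400 in older. The endothelial sum was 464 to 487 CPM in older WT and 379 to 459 in older 200M, with 0 of 7 genes called, and the immune sum was 103 to 195 and 220 to 529, with 1 of 4 called, against 2.71% of all genes. Oviduct and bursa genes, which mark tissue taken along with the ovary, ranged from 5.66 to 3210 CPM among older libraries. Their part in the collagen values was not tested.

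Whether the 200M effect in pituitary differed from that in the other tissues was tested as an interaction. All libraries were treated as independent, and whether libraries of different tissues came from the same mice was not examined. Against young ovary 10 of 43 collagen genes differed, where 10.1% of all genes did. Col1a2 had log2 differences between 200M and WT of -1.68 in pituitary and -0.21 in ovary (interaction -1.47 ± 0.139, edgeR adjusted p = 8.06e-07). Col24a1 (1.30 ± 0.196), Col27a1 (0.69 ± 0.107) and Col16a1 (-1.25 ± 0.221) also differed, and Col6a1 had 0.57 in pituitary and -0.37 in ovary (interaction 0.93 ± 0.180, adjusted p = 0.00172). Against young hypothalamus 4 of 40 differed, Col1a2, Col27a1, Col16a1 and Col24a1, against 10.5% of all genes. In the older cohort 4 of 43 differed from ovary, against 5.77% of all genes, and 10 of 43 from hypothalamus, against 17.5%. Col24a1 was in all 4 of these lists, with older interactions of 2.35 against ovary and 1.85 against hypothalamus. For Col1a2 the older interaction was called against hypothalamus (-1.48) and not against ovary, where the effects were -1.24 and -0.30. Between older and young ovary 0 of 43 collagen genes differed in edgeR, against 0.197% of all genes. DESeq2 called 2 there, and its calls over all genes in that test are not given here.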

How the data were processed

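Bulk RNA-seq of pituitary, hypothalamus and ovary was used as raw counts per gene, which the authors deposited. Per the methods, the authors aligned reads to mm10 with STAR. They counted older pituitary and hypothalamus with htseq-count, and older ovary and all young libraries with featureCounts and another annotation. Young libraries were rRNA-depleted, stranded and counted by strand, and older libraries were poly(A)-selected and counted without strand. Columns of normalized values and of the authors' DESeq2 comparisons were not used, nor were 3 count columns that no label assigns to a sample.

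Each pair of genotypes in 1 tissue and cohort was fitted by itself with edgeR 4.0.16 (TMM scaling, filterByExpr, quasi-likelihood test, Benjamini-Hochberg adjustment over all genes tested, threshold 0.05), with limma 3.58.1 and R 4.3.3. Differences of effects were tested as interactions. CPM used TMM library sizes within a tissue and cohort, and values are mean ± SD over libraries. Exon lengths were from GENCODE M21 on GRCm38. Alternatives were RLE scaling, scaling to library totals, no filter, DESeq2 1.42.0, a joint fit of genotypes, a replicate block and leaving out each library. The fits were tested on simulated data with the same dispersion for every gene. Of true log2 changes of 1, 52 to 67.7% were recovered between 200M and WT, and 21% in an interaction of young pituitary and ovary. Between 1.83 and 6.92% of the calls were false. A gene without a call may therefore still differ.

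Named genes were, per tissue, up to 12 collagen genes with the smallest p among those called in 200M against WT in either cohort, all called in 200M against 200H or in an interaction, and 12 major chains. Any other collagen gene named, such as Col20a1, Col26a1 or Col6a5, was picked after its values were seen. The collagen genes and all lists were chosen with earlier results of these data known. Per the methods, the replicates of a group came from different mice. Some results of the lists are not reported here.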

Additional observations from a re-analysis of the deposited data

Results flagged for a closer look

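Among the collagen genes named, 10 of 216 groups of libraries (4.63%) held 1 library whose gap to the rest passed Dixon's 95% value, where chance gives about 1 in 20. Groups of 3 libraries were not examined, which leaves out young WT pituitary, older 200M pituitary and older 200M hypothalamus. In young 200M pituitary, replicate 4 had 39.5 CPM of Col6a1 against 26.7 to 28.5 in the others, and 35.9 CPM of Col6a2 against 23.7 to 24.6. In older WT pituitary Col24a1 was 27.4 CPM in replicate 3 against 23.0 to 23.6, and Col27a1 was 132 CPM in replicate 1 against 183 to 193. In hypothalamus Col4a1 was 55.7 CPM in young 200H 1, Col4a2 was 184 CPM in older 200H 4, Col6a1 was 54.6 CPM in older 200H 2 and Col18a1 was 33.5 CPM in older WT 3, each above the rest of its group. In ovary Col5a2 was 174 CPM in young WT 1 and Col1a1 was 507 CPM in older 200M 3, again the highest of their groups.

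The effect of the 200M genotype differed between tissues for 28 pairs of a collagen gene and a comparison, by edgeR's interaction test with adjustment over all genes. The values are pituitary minus the other tissue, in log2. In the young cohort against ovary they were -1.47 for Col1a2, 1.30 for Col24a1, 0.69 for Col27a1, -1.25 for Col16a1, 0.93 for Col6a1, 0.89 for Col6a2, 1.77 for Col6a6, 0.78 for Col14a1, 1.28 for Col8a1 and 0.58 for Col12a1. Of 19 alternatives, the difference was kept in 8 for Col12a1, 9 for Col8a1, 14 for Col14a1, 17 for Col6a6 and 18 for Col6a2. Against young hypothalamus they were -1.83 for Col1a2, 0.87 for Col27a1, -1.36 for Col16a1 and 1.18 for Col24a1. In the older cohort against ovary they were 2.35 for Col24a1, 1.11 for Col6a3, 1.09 for Col6a1 and 0.99 for Col6a2, the last kept in 10 of 19 alternatives. Against older hypothalamus they were 1.85 for Col24a1, 2.88 for Col19a1, 0.89 for Col25a1, -1.38 for Col16a1, 0.91 for Col27a1, -1.48 for Col1a2, 1.05 for Col6a3, 1.23 for Col8a1, 0.42 for Col11a1 and 0.95 for Col23a1. Those of Col11a1 and Col23a1 were each kept in 7 of 18 alternatives.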

How the results depend on the processing

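Of 65 collagen gene calls, 40 were kept under every alternative run, and of 1009 values under alternatives 882 kept the call, 127 lost it and 0 turned direction. Scaling to library totals moved the median of all genes by 0.12 and 0.125 (log2) in young and 0.176 and 0.17 in older 200M and 200H pituitary, and raised the share of higher calls over all genes to 76.8% and 79.6% in young and 84.0% and 87.1% in older, from 53.5%, 53.4%, 54.4% and 58.0%. It called 12 collagen genes rather than 5 in young 200H against WT, and over all 18051 genes 2328 higher and 595 lower. Without the filter, 9 were called in older 200H pituitary, 5 in older 200M against 200H pituitary, 3, 1 and 1 in older hypothalamus (200M against WT, 200H against WT, 200M against 200H), and 7 and 3 in young ovary (200M and 200H against WT). Over all genes these unfiltered fits called 1344 higher and 1105 lower of 30777, and 279 and 270 of 29840, in older pituitary. In older hypothalamus they called 417 and 662 of 30984, 81 and 16 of 31541, and 574 and 751 of 31108. In young ovary they called 267 and 578 of 51368, and 41 and 200 of 51564. DESeq2 called 1 in older hypothalamus for 200M against WT and 1 against 200H, 4 in young and 4 in older ovary for 200M against WT, 1 in older ovary for 200M against 200H, 11 for older pituitary against ovary, 1 for older against young pituitary and 2 for older against young ovary. Over all genes DESeq2 called 124 higher and 495 lower of 12947, and 212 and 456 of 9485, in those hypothalamus comparisons. In 200M against WT it called 224 and 408 of 15663 in young and 718 and 611 of 18919 in older ovary. In older ovary for 200M against 200H it called 450 and 414 of 21507. For its tests of differences of effects, calls over all genes are not given here, so those collagen counts have no background beside them. In young ovary, 200M against WT gave 0 with RLE scaling, 2 with library totals, 0 in the joint fit and 0 with the replicate block, and in older ovary the joint fit gave 2. Over all genes these young ovary fits called 173 higher and 328 lower, 340 and 288, 22 and 87, and 40 and 110, in that order. The older joint fit called 461 and 354 of 18473. The cause of these changes was not tested. Within a tissue and cohort, replicate numbers did not pair libraries of different genotypes. The median correlation of deviations of same-numbered libraries was between -0.207 and 0.079 by tissue and cohort, and 22 of 128 comparisons were best with their own number. Pairing of libraries between tissues was not examined. With the replicate block, which leaves out WT u, 8 collagen genes were called in young and 18 in older 200M pituitary, and 5 for young pituitary against ovary rather than 10. Over all genes the block called 1508 higher and 1168 lower of 18948 in young, and 1965 and 1703 of 14711 in older 200M pituitary. Its calls over all genes for young pituitary against ovary are not given here. Col6a2 in young 200M pituitary had a log2 of 0.29 (adjusted p = 0.213) with the block. Leaving out 1 library gave 10 to 17 calls in older 200M pituitary (10 without 200M 3), 3 to 8 in older 200H pituitary (3 without WT 1, WT 2, 200H 2, 200H 3 or 200H 4, 8 without 200H 1), 0 to 2 in older 200M against 200H pituitary, 0 to 9 in young and 0 to 5 in older 200M ovary, 0 to 1 in older 200M against 200H ovary (1 without 200M 3), 3 to 7 for young pituitary against hypothalamus (7 without hypothalamus 200M 1) and 2 to 8 for older pituitary against ovary (2 without pituitary 200M 3, 8 without ovary WT 1). For fits that leave out 1 library, calls over all genes are not given here, so those collagen counts have no background beside them. Hypothalamus libraries of the young cohort were the shallowest, from 3321845 counts, and 13 collagen genes could not be tested there.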
